A study of Mus musculus with 16 samples.

Results

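The 8 genes described here mark the endocrine cells of the islet other than the β cell. They were taken by symbol from the 25105 genes of the deposited table by a rule that uses no measured value, and all 8 were found. Gcg, Irx2 and Gc mark α cells, Sst, Hhex and Rbp4 mark δ cells, and Ppy and Pyy mark pancreatic polypeptide (PP) cells. RNA was sequenced from dispersed primary islet cells of Grp78 flox/flox mice, in which Cre removes exons of the gene for the endoplasmic reticulum chaperone GRP78. All cells were cultured in 15 mM glucose for 72 hours, and 4 preparations of islets, named F1, M1, M2 and F2 by the labels, each gave 1 library to every one of the 4 groups. These were adenovirus with LacZ and dimethyl sulfoxide (Ad-LacZ, the control), adenovirus with Cre and dimethyl sulfoxide (Ad-Cre), and each virus with the pan-JNK inhibitor JNK-IN-8 added at the start (the Ad-LacZ + JNK inhibitor group and, with Cre, the Ad-Cre + JNK inhibitor group). Each label names a pair of animals, whereas the paper's methods count single mice, so the number of animals behind a preparation is uncertain. The methods name mice of both sexes, and F and M are read here as female and male, which the labels do not spell out. On that reading sex varied between preparations and not between groups. The floxed allele and an adenovirus were shared by all 16 libraries, and since Cre came from a virus and not from a β cell promoter, α, δ and PP cells were exposed to it as well.

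Islet hormones act on one another as well as on distant tissues. Glucagon from α cells raises glucose output by the liver and stimulates neighbouring β cells, somatostatin from δ cells restrains the release of both insulin and glucagon, and pancreatic polypeptide and peptide YY belong to the same peptide family as neuropeptide Y. All are made as prohormones that fold in the endoplasmic reticulum, where GRP78 assists folding and holds the sensors of the unfolded protein response in check.

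The values were RPKM, reads scaled by gene length and by library depth, and levels of different genes are compared on that scale. Read depth, recovered from the steps between low values, was 7.72 to 25.47 M reads per library with a median of 22.04 M. The shallowest library was that of F2 in Ad-Cre + JNK inhibitor, the only 1 whose column name carries another prefix and lane. The genes were read often enough for counting error to be small beside the spread between libraries, since the lowest number of reads in any library was 198 for Irx2, 216 for Hhex, 808 for Rbp4, 3226 for Gc, 9780 for Ppy, 10788 for Pyy, 13267 for Sst and 190514 for Gcg. The targeted gene Hspa5, which encodes GRP78, ran from 395 to 483 RPKM in Ad-LacZ and from 1107 to 1598 RPKM in Ad-Cre. A rise is the reverse of what removal of the gene would give, but values per gene cannot separate the floxed exons from the others. The study also measured this transcript by quantitative PCR in parallel aliquots, which is not analysed here, and groups are named as labelled. Other cell types were checked by lists of markers. Of 8 acinar markers, 7 stayed at or below 0.590 RPKM in every library while Cela1 had 1.71 to 10.6 RPKM, and the ε cell hormone Ghrl stayed at or below 1.21 RPKM. The β cell hormones were abundant in all libraries, with 17388 to 49417 RPKM for Ins2 and 9022 to 34425 RPKM for Ins1.

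Positions are those of GENCODE M21 on GRCm38, the build named in the submitters' processing notes. Gcg (ENSMUSG00000000394) lies at chr2:62474530-62483650, Irx2 (ENSMUSG00000001504) at chr13:72628820-72634198 and Gc (ENSMUSG00000035540) at chr5:89417522-89457898. Sst (ENSMUSG00000004366) lies at chr16:23889573-23890958. Hhex (ENSMUSG00000024986, chr19:37434810-37440731) and Rbp4 (ENSMUSG00000024990, chr19:38116629-38125281) share chromosome 19, with 675.9 kb between them. Ppy (ENSMUSG00000017316, chr11:102099930-102101319) and Pyy (ENSMUSG00000017311, chr11:102106676-102107832) are neighbours on the minus strand, with 5.4 kb between them. Their transcripts share no word of 31 bases, out of 497 words in Ppy and 628 in Pyy. All 8 genes code for proteins.

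The promoters of the hormone genes are shown because the hormones carry most of the results below. In the 250 bases before each RefSeq start (RefSeq, GRCm38.p6), both strands were searched for 3 motifs that do not contain one another. The first, the TATA box TATAAA, was present in 12.4% of 32851 promoter windows of all genes and in 3 of the 8 genes (Gcg, Ppy and Rbp4). The cyclic AMP response element, spelled TGACGTCA, was present in 1.55% of windows and among the 8 genes in Sst alone, 48 to 41 bases before the start. The AP-1 site, searched because JNK phosphorylates AP-1 factors and spelled TGANTCA, was present in 6.75% of windows and among the 8 genes in Rbp4 alone, 142 to 136 bases before the more downstream of its annotated starts. The windows of Gcg, Ppy and Pyy are given with each TATA box, on either strand, in capitals, and for Sst 30 bases with the response element in capitals. Each reads 5′ to 3′ on the minus strand.
Gcg chr2:62483654-62483903: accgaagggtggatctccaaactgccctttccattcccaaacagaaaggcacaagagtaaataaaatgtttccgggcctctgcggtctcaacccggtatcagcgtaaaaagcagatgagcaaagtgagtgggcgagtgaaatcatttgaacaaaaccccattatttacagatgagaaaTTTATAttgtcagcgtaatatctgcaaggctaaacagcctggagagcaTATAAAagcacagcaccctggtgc
Sst chr16:23890874-23890903: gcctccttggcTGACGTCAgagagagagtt
Ppy chr11:102101320-102101569: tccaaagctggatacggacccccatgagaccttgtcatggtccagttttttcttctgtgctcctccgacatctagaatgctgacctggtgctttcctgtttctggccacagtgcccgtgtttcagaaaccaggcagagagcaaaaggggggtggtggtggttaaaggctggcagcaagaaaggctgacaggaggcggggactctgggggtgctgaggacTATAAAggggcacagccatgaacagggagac
Pyy chr11:102107833-102108082: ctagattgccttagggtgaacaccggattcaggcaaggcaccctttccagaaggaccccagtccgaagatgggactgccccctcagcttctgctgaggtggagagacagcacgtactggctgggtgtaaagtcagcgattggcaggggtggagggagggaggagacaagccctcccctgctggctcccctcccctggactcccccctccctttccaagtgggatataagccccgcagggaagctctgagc
The TATAAA of Gcg stood 24 to 19 bases before the start and that of Ppy 31 to 26 bases before it. The Pyy window held none of the 3 motifs as spelled. Near its end it reads tataag, a similar spelling that the search did not count. These matches describe the letters of the windows and nothing was measured on the factors that bind them.

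Glucagon was the most abundant transcript of the 8. Gcg, which encodes preproglucagon, had 10345 to 26503 RPKM with a median of 12865, between 3.43% and 8.51% of the summed RPKM of a library, and ranked 1 to 3 among all genes. Sst, the somatostatin gene, followed with 1089 to 6660 RPKM (median 2394, rank 4 to 20). Pyy, which encodes peptide YY, had 1068 to 4020 RPKM (median 2182) and Ppy, which encodes pancreatic polypeptide, had 1147 to 2892 RPKM (median 2033). The order of these last 3 was not resolved: Sst was above Pyy in 10 of 16 libraries and Pyy above Ppy in 8 of 16. Gcg was above Sst, and Ppy above Gc, in 16 of 16. Gc, the vitamin D binding protein of α cells, had 110 to 242 RPKM (median 147). It exceeded Rbp4, the retinol carrier made by δ cells, in 15 of 16 libraries, as Rbp4 had 30.1 to 158 RPKM (median 66.5). The 2 transcription factors came last. Irx2, an Iroquois homeobox factor of α cells, had 4.44 to 11.1 RPKM (median 6.71), and Hhex, the homeobox factor that δ cells depend on, had 2.85 to 13.4 RPKM (median 4.65). Irx2 was above Hhex in 13 of 16 libraries.

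**Figure D1:**
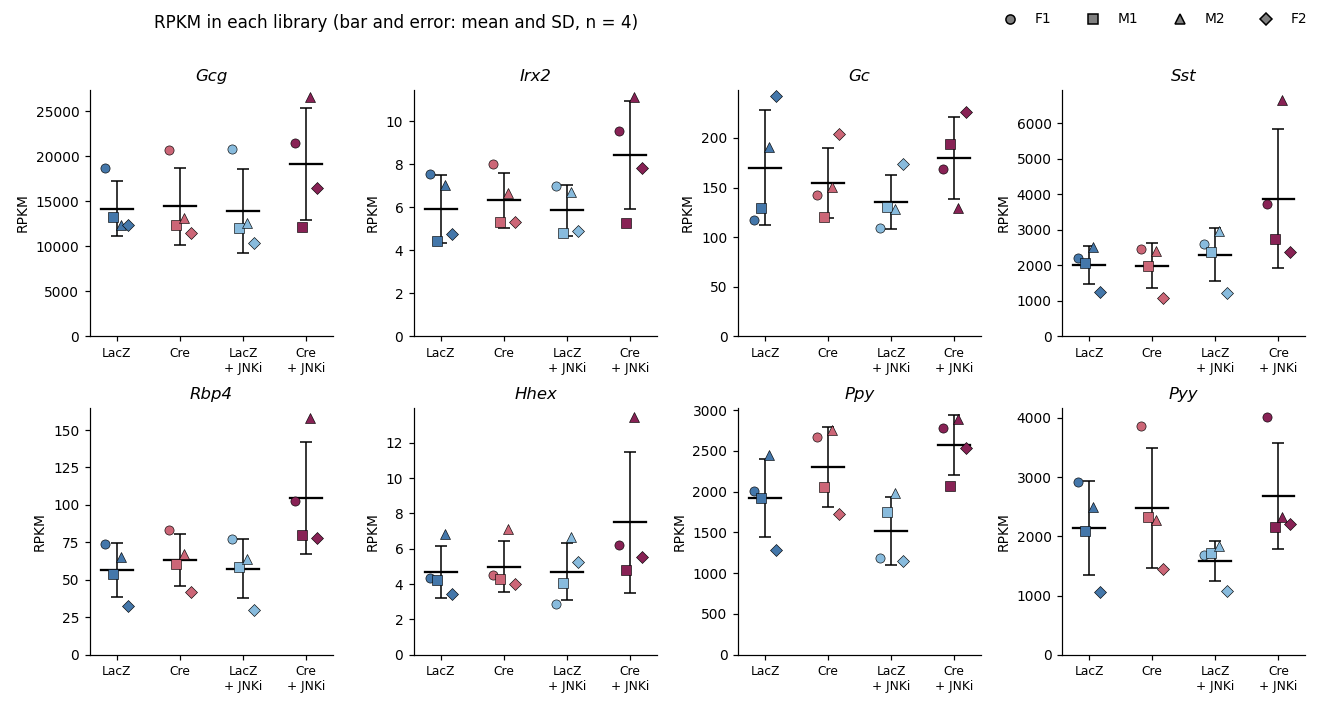
RPKM of the 8 genes in each library, on linear axes from 0, with a panel per gene and the 4 groups along each axis (JNKi, JNK inhibitor). Symbols mark the 4 preparations, the horizontal bar is the mean and the error bar the SD of 4 libraries. The library of M2 in Ad-Cre + JNK inhibitor is highest for Gcg (26503 RPKM), Sst (6660 RPKM), Rbp4 (158 RPKM) and Hhex (13.4 RPKM), and F2 is lowest for Sst in every group.

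The virus comparison without inhibitor asked whether the non-β endocrine genes changed in the libraries labelled Ad-Cre. None of the 8 passed the test. Gcg had 18702, 13268, 12334 and 12357 RPKM in Ad-LacZ (F1, M1, M2 and F2 in that order, here and below) and 20716, 12348, 13130 and 11497 RPKM in Ad-Cre. The groups overlapped almost fully, and the log2 difference on scaled RPKM + 1 was 0.00 with a 95% interval of -0.75 to 0.75 (with RPKM rescaled to equal sums, -0.07). Sst had 2197, 2070, 2513 and 1238 RPKM in Ad-LacZ and 2464, 1980, 2406 and 1089 RPKM in Ad-Cre, a log2 difference of -0.04 (interval -0.80 to 0.71). Somatostatin transcripts were lowest in F2 and next lowest in M1 under both viruses. Ppy had 2008, 1922, 2450 and 1288 RPKM in Ad-LacZ and 2673, 2059, 2754 and 1728 RPKM in Ad-Cre, and was higher in Ad-Cre in 4 of 4 preparations, by a log2 difference of 0.27 (interval -0.30 to 0.84). Rbp4 and Hhex were also higher in 4 of 4 preparations, by 0.18 and 0.07. The other differences on this scale were 0.09 for Irx2, -0.11 for Gc and 0.21 for Pyy, or -0.05 for Pyy with quantile normalization. Of the 11590 genes tested, 16.9% were called by limma at a Benjamini-Hochberg adjusted p under 0.05, against 0 of these 8, whose adjusted p from limma was 0.495 to 0.998. A looser rule, an unadjusted p under 0.05 and a change of more than 1.5-fold, was met by 10.3% of genes and 0 of 8. When the preparation entered the fit as a block, 34.4% of genes and 0 of 8 were called. Groups without overlap were found for 24.9% of genes and for none of the 8. The median log2 difference was 0.08 over the 8 genes and -0.01 over all genes tested.

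The transcription factors shared by islet endocrine cell types were lower in the same comparison. Of 8 in the list, 6 fell in Ad-Cre (limma, Benjamini-Hochberg adjusted p 0.00686 to 0.0221) and none rose, and their median log2 difference was -0.76. Neurod1, a helix-loop-helix factor of endocrine differentiation, fell by 1.30 on the log2 scale, Nkx2-2 by 1.11, Rfx6 by 0.87, Isl1 by 0.81, Pax6 by 0.72 and Insm1 by 0.59. Of the α cell markers beyond the 3 described, 0 of 6 tested were called. The most abundant was Ttr, the thyroxine carrier transthyretin, with a log2 difference of -0.35, followed by the arginine transporter Slc7a2 with -0.81, and with the preparation as a block Slc7a2 fell (adjusted p = 0.00151 from limma). Both tested δ cell markers beyond the 3 described, Arg1 (0.15) and Ffar4 (0.27), were uncalled. Of 6 genes of prohormone processing, 0 were called. Their most abundant members were the carboxypeptidase Cpe (-0.10), the convertase Pcsk2 (-0.53), which cuts proglucagon in α cells, and Pcsk1n (0.21). With the block, Pcsk2 and Pcsk1 fell (adjusted p = 0.0357 and 0.00269 from limma). Of 13 receptors for these hormones, 5 were expressed highly enough to be tested and 0 were called: Glp1r, the most abundant (mean 96.6 RPKM), had a log2 difference of -0.21, the somatostatin receptor Sstr3 -0.13 and the glucagon receptor Gcgr 0.20. The β cell list fell in 3 of 12 genes, with a median log2 difference of -0.86, and in 8 of 12 with the block.

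In bulk RNA, fewer cells of a type and less RNA per cell cannot be told apart, and this holds for every gene here. Of the lists for macrophages, stellate cells and fibroblasts, endothelial cells and duct cells, that of macrophages had called genes. It had 7 of 7 genes higher in Ad-Cre, 2 of them called, and its summed level was 70.0 to 78.4 RPKM in Ad-LacZ and 69.7 to 205 RPKM in Ad-Cre, where F1 did not exceed its control. The stellate cell and fibroblast list had 4 of 4 tested genes higher, none called, with 23.6 to 108 RPKM in Ad-LacZ and 21.8 to 683 RPKM in Ad-Cre. The endothelial list had 6 of 7 higher, none called, with 46.5 to 78.4 and 45.0 to 125 RPKM. Both sums were lower in Ad-Cre in F1 and M1 and higher in M2 and F2. The duct cell list had 0 of 3 tested genes higher, none called, with 146 to 285 and 111 to 336 RPKM. Their part in the values of the 8 genes was not tested.

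The inhibitor in control cells addressed what JNK-IN-8 does without Cre. Again 0 of 8 genes were called, where limma with Benjamini-Hochberg adjustment called 0.197% of 11657 genes, 17 of 23 calls upward (6 of 6 with equal sums and 6 of 7 with RPKM as deposited). A looser rule for the inhibitor, an unadjusted p under 0.05 and a change of more than 1.2-fold, was met by 4.83% of genes and 0 of 8. The blocked fit called 0.335% of genes, and groups did not overlap for 4.51%, in both cases with 0 of 8. The PP genes were the furthest down. Ppy had 1190, 1749, 1979 and 1147 RPKM with inhibitor, below its Ad-LacZ value in 4 of 4 preparations, and its log2 difference was -0.34 (interval -0.92 to 0.24). Pyy had 2912, 2087, 2493 and 1068 RPKM in Ad-LacZ and 1684, 1717, 1828 and 1082 RPKM with inhibitor, a log2 difference of -0.38 (interval -1.17 to 0.42), and after scaling it too was lower in 4 of 4 preparations. The groups overlapped for both genes, and with the preparation as a block their unadjusted p was 0.0212 and 0.0199 and their adjusted p 0.285 and 0.278 (limma). The remaining log2 differences were -0.06 for Gcg, 0.00 for Irx2, -0.29 for Gc, 0.17 for Sst, -0.02 for Hhex and 0.02 for Rbp4. Their median with the PP genes was -0.04, against -0.02 over all genes tested. Ins2 and Ins1 were lower in 4 of 4 preparations, with log2 differences of -0.58 and -0.62 and adjusted p of 0.999 and 0.970 from limma. The β cell list they belong to had 6 of 12 genes higher and 0 called, with a median of -0.04. No gene of the α cell, δ cell, regulator, processing or receptor lists was called, and with the block Pcsk1 rose and the glucagon receptor Gcgr fell. Macrophage markers were higher in 7 of 7, 2 of them called, at 136 to 313 RPKM with inhibitor. Stellate cell and fibroblast markers were higher in 4 of 4 tested with 0 called, or 1 with the block, at 43.8 to 512 RPKM. Duct cell markers went from a summed 146 to 285 RPKM to 388 to 920 RPKM with 0 of 3 tested called, or 1 with the block, and their part, like that of the others, was not tested. On the scale of equal RPKM sums the differences of Irx2 and Hhex were 0.04 and 0.03, and with quantile normalization those of Gcg, Sst and Rbp4 were 0.20, -0.13 and -0.04.

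The inhibitor in Ad-Cre cells gave its largest estimate for Sst, though not under every scaling. Somatostatin transcripts had 2464, 1980, 2406 and 1089 RPKM in Ad-Cre and 3735, 2732, 6660 and 2382 RPKM in Ad-Cre + JNK inhibitor. They were higher with inhibitor in each of the 4 preparations, but the groups overlapped, as F2 with inhibitor lay below F1 and M2 without it. The log2 difference was 1.08 (SE 0.39, interval 0.20 to 1.96), a fold change of 2.11, with an unadjusted p of 0.0219 and an adjusted p of 0.506 from limma with Benjamini-Hochberg adjustment, and an exact permutation test (two-sided) gave p = 0.0571. Rbp4, the other secreted protein of δ cells here, had 83.2, 60.5, 67.5 and 41.8 RPKM in Ad-Cre and 103, 79.6, 158 and 77.9 RPKM with inhibitor. It was likewise higher in 4 of 4 preparations, with a log2 difference of 0.86 (SE 0.30, adjusted p = 0.477 from limma). All 8 genes had a positive difference, with 0.55 for Gcg, 0.48 for Irx2, 0.38 for Gc, 0.57 for Hhex, 0.33 for Ppy and 0.31 for Pyy, and a median of 0.51 against -0.01 over all 11503 genes tested. With quantile normalization the difference of Sst was 0.42, below those of Rbp4 (0.65), Hhex (0.62), Irx2 (0.52) and Gcg (0.45), that of Gc was 0.08, and those of Ppy and Pyy were below 0, at -0.34 and -0.33. None of the 8 was called at the adjusted p, where 0.0174% of genes were. Groups did not overlap for 5.82% of genes and for none of the 8. The looser rule was met by Sst and Rbp4, 2 of 8, and by 7.81% of all genes, 5.49% upward.

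The blocked fit called 6.76% of genes, 4.66% upward, and of the 8 genes Sst rose (adjusted p = 0.0373 from limma) while Rbp4 had an adjusted p of 0.0508. The largest differences came from M2 and F2, with log2 values for Sst of 0.70, 0.57, 1.77 and 1.27 in the order given above. The library of M2 in Ad-Cre + JNK inhibitor was the 1 least like the others of its group. Its log2 values correlated over genes at 0.943 with the mean of those others, and M2 in Ad-Cre had 0.946. Summed endothelial markers were highest in M2 in every group, at 138 RPKM in Ad-Cre + JNK inhibitor and 125 RPKM in Ad-Cre. Without the M2 library of Ad-Cre + JNK inhibitor alone, the difference of Sst was 0.79 and that of Rbp4 0.65 (adjusted p 0.364 and 0.335 from limma). With the block, the call of Sst was lost without F1, M1 or F2 (adjusted p 0.0927, 0.147 and 0.171) and kept without M2 (0.0113), where Gc, Hhex and Rbp4 were called as well. Of the further α cell markers, 6 of 6 tested had a positive difference and 0 were called, or 3 with the block. These 3 were Ttr (1.68), Slc38a5 (0.76) and Irx1 (0.58), and Slc7a2 (0.56) was not called. For δ cells 3 of 3 were positive, with Arg1 at 0.40 and Ghsr at 0.34, and 0 were called. With the block 1 was called, the fatty acid receptor Ffar4 (0.63, adjusted p = 0.0194 from limma). Ghsr passed the filter only in comparisons that include the Ad-Cre + JNK inhibitor group, at a mean of 1.37 RPKM there against 0.951 in Ad-Cre. Its sign was favoured by that filter and is no support. Of the prohormone processing genes 0 of 6 were called, or 1 with the block, Pcsk1 (0.91). Of the receptors 0 of 5 were called, and with the block Sstr2 rose (0.68) and Gcgr fell (-0.73), while 0 of the 8 shared regulators were called in either fit. Endothelial markers were positive in 6 of 7 with 0 called, or 1 with the block (Plvap, 0.80), from 45.0 to 125 RPKM in Ad-Cre to 48.9 to 138 RPKM. Macrophage markers were positive in 4 of 7 with 0 called, or 1 with the block (Lyz2, 1.46), duct cell markers in 3 of 3 and stellate cell and fibroblast markers in 1 of 6 (median -0.58), with 0 called in either fit. The β cell list had 5 of 12 positive and 0 called. The part of these cells was not tested.

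**Figure D2:**
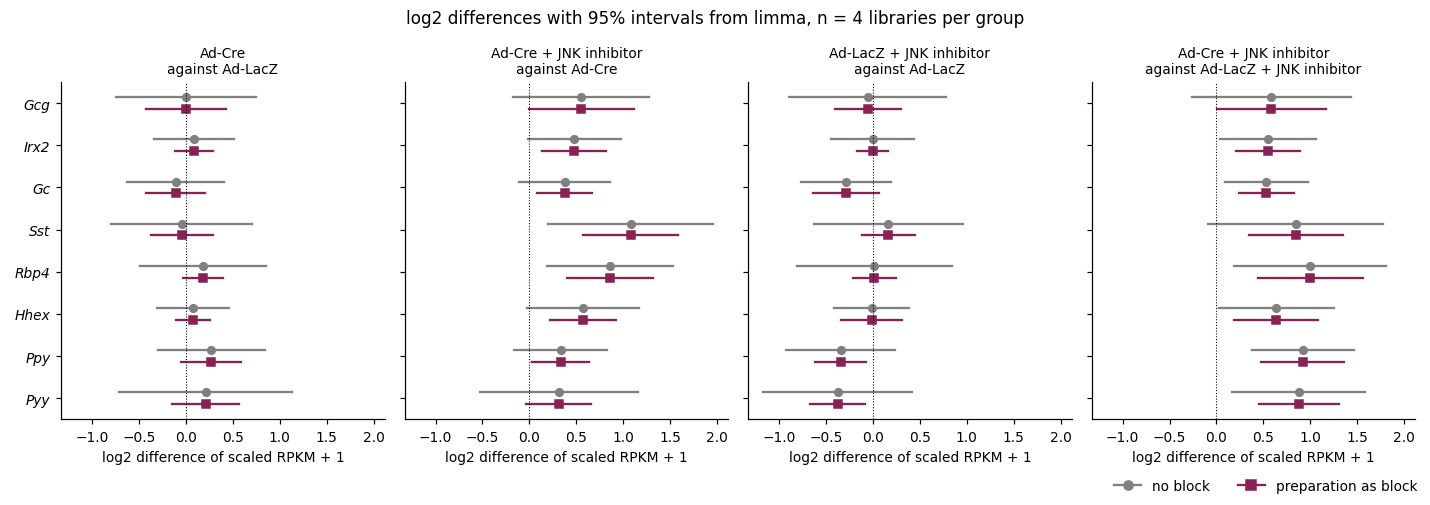
The log2 difference of scaled RPKM + 1 for the 8 genes in the 4 comparisons, as points with 95% intervals from limma (n = 4 libraries per group), without a block (grey) and with the preparation as a block (purple). All 8 lie above 0 in both comparisons of the Ad-Cre + JNK inhibitor group, where Sst reaches 1.08 and Rbp4 1.00, and all blocked intervals include 0 for Ad-Cre against Ad-LacZ.

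The virus comparison under inhibitor asked the same of Ad-Cre as the virus comparison before, with JNK inhibited in both groups. It shares libraries with the comparisons above and is therefore not a separate observation of those groups. The call among the 8 genes was Ppy. It had 1190, 1749, 1979 and 1147 RPKM in Ad-LacZ + JNK inhibitor and 2776, 2065, 2892 and 2533 RPKM in Ad-Cre + JNK inhibitor. The groups did not overlap, and the log2 difference was 0.92 (SE 0.24, interval 0.38 to 1.46), a fold change of 1.89 with an adjusted p of 0.0263 from limma with Benjamini-Hochberg adjustment. Pyy had 1684, 1717, 1828 and 1082 RPKM and then 4020, 2151, 2332 and 2214 RPKM, again without overlap, and its log2 difference of 0.87 (SE 0.31) had an adjusted p of 0.0765 from limma. An exact permutation test (two-sided) gave p = 0.0286 for both, the smallest that 4 libraries against 4 allow. Groups without overlap were found for 26.1% of 11598 genes, 11.6% upward, beside these 2 of 8.

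The other genes were higher in 4 of 4 preparations as well. Rbp4 had 77.5, 58.7, 63.8 and 30.1 RPKM in Ad-LacZ + JNK inhibitor, against the values given above for Ad-Cre + JNK inhibitor, and the largest estimate, a log2 difference of 1.00 (SE 0.36, adjusted p = 0.0776 from limma). Sst had 2602, 2370, 2961 and 1230 RPKM in Ad-LacZ + JNK inhibitor, and a log2 difference of 0.85 (SE 0.41, adjusted p = 0.174 from limma). Gcg had 20808, 11988, 12600 and 10345 RPKM and then 21447, 12091, 26503 and 16511 RPKM. Most of its log2 difference of 0.58 (interval -0.27 to 1.43) came from M2 and F2, as F1 and M1 differed by 0.03 and 0.15. The differences of Irx2, Gc and Hhex were 0.55, 0.53 and 0.64. The median over the 8 genes was 0.74, against -0.03 over all genes tested, and Ins2 had 0.56 and Ins1 -0.13. The β cell list fell in 4 of 12 genes. With the preparation as a block, 8 of the 12 fell and 1 rose. That 1 was Ins2, higher in 4 of 4 preparations (adjusted p = 0.0274 from limma). At the adjusted p 1 of the 8 was called beside 20.6% of genes (10.1% upward), and by the looser rule of the virus comparison it was 4 of 8 (Ppy, Pyy, Rbp4 and Hhex) beside 17.8% of genes (9.75% upward). In the blocked fit it was 6 of 8 (all but Gcg and Hhex, adjusted p 0.0174 to 0.0364 from limma) beside 24.8% of genes (12.7% upward).

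These calls depended on single preparations and on the scaling. The call of Ppy was lost without F1, M1 or F2 (adjusted p 0.102, 0.0985 and 0.163 from limma), without the shallow F2 library alone (0.0626), with equal sums (0.0594), with a filter at 0.1 RPKM or none (0.0683 and 0.323), and with quantile normalization, where its log2 difference was 0.23 and those of Sst, Pyy and Gc were 0.16, 0.14 and 0.12. The blocked count of 6 became 0 without M1 or F2, 5 without F1 and 6 without M2. All 8 genes stayed above 0 under each scaling, with medians of 0.62 for RPKM as deposited, 0.45 for equal sums and 0.32 with quantile normalization, where the median of all genes was -0.14, -0.28 and 0.01. The share of all calls that were higher was 49.1% with the main scaling and 31.1%, 16.8% and 53.9% with these. Beyond the 8 genes, δ cell markers rose in 2 of 3 tested, Arg1, which encodes arginase, by 0.87 and Ffar4 by 0.97 (adjusted p = 0.011 and 0.00755 from limma), while Ghsr had 0.40. For Ghsr the filter again favoured this sign, with a mean of 1.37 RPKM in Ad-Cre + JNK inhibitor against 0.834 in Ad-LacZ + JNK inhibitor. Of 6 α cell markers 0 were called, with Ttr at 0.65 and Slc7a2 at -0.44, and Ttr and Irx1 rose with the block. The shared regulators fell in 5 of 8 (median -0.61), with Neurod1 at -1.53, Nkx2-2 at -0.92, Rfx6 at -0.78, Pax6 at -0.61 and Isl1 at -0.59. Of the 5 receptors tested 0 were called, with Glp1r at -0.61, Sstr3 at 0.08 and Gcgr at 0.35, and with the block the somatostatin receptor Sstr2 rose (0.51). Of the 6 processing genes 0 were called, or 1 with the block, Pcsk1 (-0.87), with Cpe at 0.35, Pcsk2 at -0.13 and Pcsk1n at 0.51. Endothelial markers were higher in 7 of 7 with 0 called, at 41.8 to 65.0 RPKM in Ad-LacZ + JNK inhibitor and 48.9 to 138 RPKM in Ad-Cre + JNK inhibitor. Stellate cell and fibroblast markers were lower in 6 of 6 tested, at 43.8 to 512 and 26.3 to 148 RPKM, with 0 called or 4 with the block. Duct cell markers fell in 1 of 3 tested, at 388 to 920 and 224 to 314 RPKM, and macrophage markers lay at 136 to 313 and 174 to 291 RPKM with 0 of 7 called. Their part in these results was not tested.

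Whether the virus difference itself changed with the inhibitor was tested by the interaction term over all 16 libraries. No gene of 12274 passed at the adjusted p, with or without the block, and 396 genes (3.23%) had an unadjusted p under 0.05 without it, none of them among the 8. With the block, 11.6% of genes (5.57% upward) had an unadjusted p under 0.05, and so did 8 of 8 here, all in the direction of a larger difference under inhibitor. The log2 estimates were 0.60 for Gcg, 0.47 for Irx2, 0.65 for Gc, 0.90 for Sst, 0.58 for Hhex, 0.83 for Rbp4, 0.67 for Ppy and 0.68 for Pyy, with adjusted p of 0.201 to 0.427 from limma with the block. Of the β cell genes, Ins2 met the same unadjusted threshold, with an estimate of 0.75 (unadjusted p = 0.00364 and adjusted p = 0.224 from limma with the block). The virus difference of Ins1 was -0.38 without inhibitor and -0.13 with it, and the median of the β cell list was -0.86 and -0.81. The 8 genes share libraries and are not separate observations. Within preparations, 30 of the 32 virus differences of the 8 genes were larger with inhibitor than without. The exceptions were Gcg in F1 (0.03 against 0.20) and Irx2 in M1 (0.23 against 0.24). No such count was made over all genes. Ins2 had virus differences of 0.26, -0.02, -0.43 and -0.52 without inhibitor and 0.64, 0.34, 0.64 and 0.62 with it. Those of Ins1 were -0.15, -0.17, -0.81 and -0.37 without inhibitor and 0.23, -0.20, -0.31 and -0.24 with it.

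**Figure D3:**
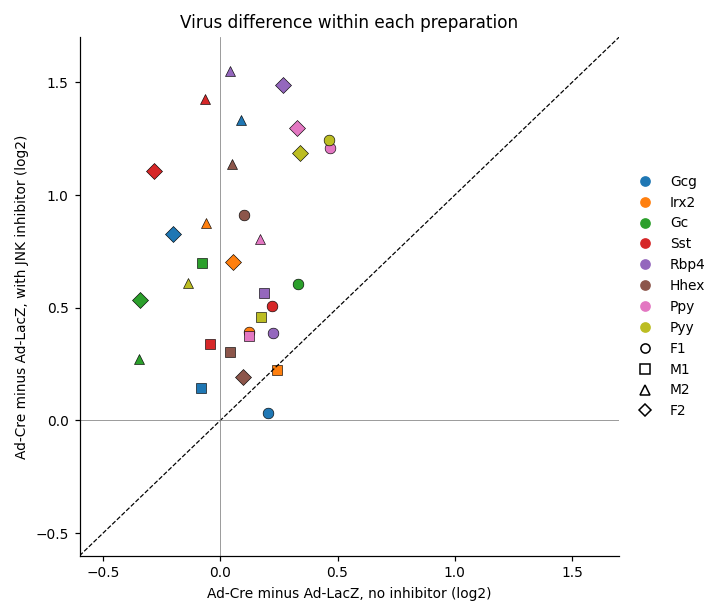
The log2 difference of Ad-Cre and Ad-LacZ within each preparation, without inhibitor (horizontal axis) and with it (vertical axis), for the 8 genes (colours) in 4 preparations (symbols). The dashed line marks equal differences, and 30 of 32 points lie above it. Points of the same preparation share libraries, and the share over all genes was not counted.

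The preparations themselves were a source of spread in these genes. The moderated F-test of limma for the preparation, with the treatment in the fit, called 36.6% of 12274 genes at the adjusted p and 7 of the 8, all but Gc (adjusted p = 0.0587). The clearest were Pyy (adjusted p = 0.000662), Sst (0.000666), Irx2 (0.00119) and Rbp4 (0.00122). Gcg was highest in F1, at 20418 ± 1190 RPKM over its 4 treatments (SD, n = 4), against 12424 ± 583 in M1 and 12678 ± 2685 in F2, with M2 at 16142 ± 6915. The highest library of M2 had 26503 RPKM. Pyy was also highest in F1 (3121 ± 1076 RPKM) and lowest in F2 (1452 ± 537 RPKM). Sst was lowest in F2 (1485 ± 602 RPKM) and highest in M2 (3635 ± 2031 RPKM), which includes the high library of 6660 RPKM. Rbp4 was lowest in F2 too (45.5 ± 22.2 RPKM), and its means in F1 and M2 were 84.3 ± 12.8 and 88.8 ± 46.4 RPKM, with F1 above M2 in each group but Ad-Cre + JNK inhibitor. Hhex was highest in M2 at 8.51 ± 3.29 RPKM, against 4.33 to 4.54 RPKM in the other 3. Gc ran the other way, with its highest mean in F2 (211 ± 29.8 RPKM) and its lowest in F1 (135 ± 26.6 RPKM). In log2 the preparation means of Pyy spanned 1.31 and its treatment means 0.89, while for Ppy the treatment means spanned more (0.93 against 0.58). The count of 7 became 4 without F2, as Sst, Rbp4 and Ppy no longer passed (adjusted p 0.317, 0.129 and 0.675 from limma).

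Ratios of hormone transcripts within a library do not depend on scaling between libraries. Gcg over Ins2 was 0.408 ± 0.0813 in Ad-LacZ, 0.478 ± 0.178 in Ad-Cre, 0.607 ± 0.215 in Ad-LacZ + JNK inhibitor and 0.650 ± 0.356 in Ad-Cre + JNK inhibitor (SD, n = 4). Sst over Ins2 was 0.0606 ± 0.0297, 0.0692 ± 0.0434, 0.102 ± 0.0501 and 0.136 ± 0.105 in the same order. Both were higher with inhibitor in 4 of 4 preparations under either virus. Ppy over Ins2 was 0.0583 ± 0.0290, 0.0818 ± 0.0482, 0.0678 ± 0.0310 and 0.0849 ± 0.0294, and was higher in Ad-Cre in 4 of 4 preparations with and without inhibitor. Gcg over Sst was 7.45 ± 2.24, 7.67 ± 2.30, 6.43 ± 2.08 and 5.27 ± 1.34, lower with inhibitor in 4 of 4 preparations under either virus. None of the 16 tests passed, with a lowest adjusted p of 0.686 in exact permutation tests (two-sided). Exact paired permutation tests over the 4 preparations could not go below p = 0.125, and their lowest adjusted p was 0.2.

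Some of the genes varied closely together over the libraries. The correlations below, of log2(scaled RPKM + 1), describe 16 libraries that share 4 preparations. Sst and Rbp4 were each the gene most like the other among 12273 others, at r = 0.949. Their r was 0.931 without the high library of M2 and 0.947 after subtraction of treatment means, where Epb41l4a was more like Sst (0.957). Gcg was most like Ndst4 (0.954) and Irx1 (0.949), an Iroquois factor, and Irx2 was most like Irx1 (0.937). Between the members, Gcg and Irx2 had r = 0.905. Ppy was most like the potassium channel Kcnk3 (0.902), Arg1 (0.888) and Pyy (0.869), and Pyy like Klb (0.908) and Rhbdl3 (0.904). Among the genes most like Hhex were Tbx3 (0.851) and the endothelial gene Esm1 (0.848), and its r with Sst, 0.735, was 0.536 without the high library of M2. Gc stood apart from the α cell genes it is listed with. Its r with Gcg was -0.07 and with Irx2 -0.02, and with Sst it was -0.20, or -0.79 after subtraction of treatment means, and the gene most like it reached 0.794 (Myl6b).

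**Figure D4:**
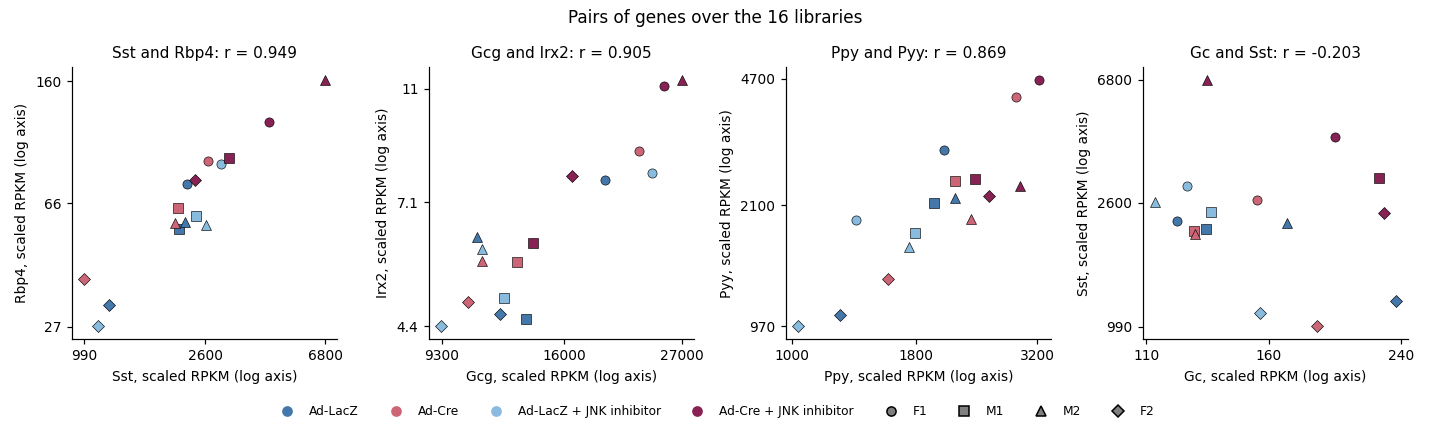
Scaled RPKM of pairs of genes in the 16 libraries, on log axes, with the treatment as colour and the preparation as symbol. Points of Sst and Rbp4 (r = 0.949), Gcg and Irx2 (0.905) and Ppy and Pyy (0.869) run along a diagonal, while those of Gc and Sst (-0.20) do not.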

How the data were processed

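RNA of 16 libraries (4 preparations in 4 groups, grouped by their labels) had been sequenced, and the authors aligned the reads to the mouse genome and counted them per gene. The values they deposited are RPKM. The submitters' processing notes name GRCm38. The step from counts to RPKM is not given in the sources used here. A further 3 columns that no label names were not used. Depth was recovered from the steps of low values with GENCODE M21 exon lengths, at which 93.09% to 94.32% of low values were whole reads within 0.05.

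For each comparison, its 8 libraries were scaled over all genes by trimmed means of M-values (30% of ratios and 5% of levels trimmed). Genes exceeding 1 RPKM before scaling in 4 or more of these libraries were kept. log2(RPKM + 1) was then fitted in limma 3.58.1 (eBayes with trend, R 4.3.3), and genes with a Benjamini-Hochberg adjusted p under 0.05 over all genes were called. Differences on this scale understate changes of low genes. The looser rule takes its fold thresholds (1.5 for virus, 1.2 for inhibitor) from the study. The labels name different animals for each preparation, but the number of animals behind a preparation is uncertain. The p-values measure the spread between these libraries. The preparations pair the libraries, as the methods describe parallel cultures of each biological replicate. Residuals of libraries of the same preparation correlated at 0.131 to 0.826, and those of other pairs at means of -0.230 to -0.129 per comparison. Subtraction of group means pulls the correlations of other pairs toward negative values, so they are not separate support for the pairing. The scripts were tested on simulated data. Alternatives covered scaling, pseudocount, filter, variance trend, block, all libraries in 1 fit and libraries left out. The genes and lists were chosen with earlier results of these data known. Named were the 8 genes, the 3 most abundant and any called genes of each list, and the genes most alike to each of the 8. Some genes that this rule names are not reported here. Genes named as called only with the block, and Ghsr, Slc38a5, Irx1, Plvap, Lyz2 and Epb41l4a, were chosen after their values were seen. Figures were drawn with matplotlib 3.10.9.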

Additional observations from a re-analysis of the deposited data

Results flagged for a closer look

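In 3 of the 32 combinations of a gene and a group, 1 library stood far from the other 3, by a gap that took most of the range of its group. Chance gives about 1 in 20 such combinations. Gcg had 18702 RPKM in F1 of Ad-LacZ, where the nearest library had 13268 RPKM, and F1 was also the highest preparation for Gcg in Ad-Cre and in Ad-LacZ + JNK inhibitor. Hhex had 13.4 RPKM in M2 of Ad-Cre + JNK inhibitor, where the nearest had 6.22 RPKM. That library also held the highest value of Gcg, Irx2, Sst, Rbp4 and Ppy among all 16. Pyy had 4020 RPKM in F1 of Ad-Cre + JNK inhibitor, where the nearest had 2332 RPKM. It was highest in F1 in Ad-LacZ and Ad-Cre as well.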

How the results depend on the processing

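Ad-Cre against Ad-LacZ, Ad-LacZ + JNK inhibitor against Ad-LacZ and the interaction kept 0 of 8 genes called under each of 18 alternatives. For the inhibitor in Ad-Cre (0 of 8 called), the replicate block called 1 and all 16 libraries with the block called 4, and with the block kept and 1 preparation left out the count ran from 0 to 4. For the virus under inhibitor (1 called), 0 were called after rescaling to the same sum, with quantile normalization, with no filter on low values and with a filter at 0.1 RPKM. There, 2 were called with all 16 libraries, 6 with the replicate block and 8 with both, and with libraries or preparations left out the count ran from 0 to 6. The preparation effect (7 called) fell to 4 without F2. Leaving out the M2 library alone, and leaving out a preparation from the blocked fit, were chosen after seeing the data.

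Directions turned only for differences that were not called. For Ad-Cre against Ad-LacZ, the Gcg difference was -0.069 at equal sums and -0.00199 with all 16 libraries, with or without the block, and ran from -0.065 to 0.071 with libraries left out. Sst ran from -0.13 to 0.039, and Pyy was -0.046 with quantile normalization. For the inhibitor in Ad-Cre, quantile normalization gave Ppy -0.34 and Pyy -0.33. For the inhibitor in Ad-LacZ, equal sums gave Irx2 0.040 and Hhex 0.031, quantile normalization gave Gcg 0.20, Sst -0.13 and Rbp4 -0.035, and all 16 libraries gave Irx2 0.0041. With libraries left out these ran from -0.035 to 0.025 for Irx2, -0.14 to 0.11 for Hhex, -0.17 to 0.063 for Gcg and -0.044 to 0.10 for Rbp4. The causes were not tested. The ratios kept their side of the threshold under pairing, at which no p below 0.125 was possible. The depth of the F2 library of Ad-Cre + JNK inhibitor, 7.72 M reads, limits the low genes there, and intervals from limma cover spread between libraries only.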
